A study of Flaveria angustifolia and Flaveria bidentis and Flaveria brownii with 21 samples.

Results

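Flaveria brownii was compared here with the C4-type species of the other large branch of its genus, in the 9 leaf libraries that allow the comparison out of the 21 samples of the series. Flaveria is a genus of the daisy family whose living species run from C3 through intermediate to C4 photosynthesis. Of the 21 samples 18 are Flaveria libraries, and 3 out-group samples were not used here. The libraries were taken by species and leaf stage. Juvenile leaves, the ones that had just begun to expand, gave 1 library of F. brownii and 4 of clade A, from F. palmeri, F. vaginata, F. bidentis and F. trinervia. Mature leaves, the newest fully expanded ones, gave 1 library of F. brownii and 3 of clade A, from F. kochiana, F. bidentis and F. trinervia. All plants were wild species grown in a greenhouse without a treatment named in the labels, and each library pooled leaves of several plants. Clades and photosynthetic types are textbook knowledge and not labels. F. brownii is a C4-like species of clade B, F. palmeri and F. vaginata are C4-like species of clade A, while F. bidentis, F. trinervia and F. kochiana of clade A are C4 species. The 2 C3 species F. cronquistii and F. pringlei, with 1 juvenile and 1 mature library each, are given beside some values as a reference.

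In C4 photosynthesis CO2 is first fixed in the mesophyll by phosphoenolpyruvate carboxylase (PEPC), carried as malate or aspartate into the bundle sheath, and released there by a decarboxylase next to Rubisco. The 3-carbon product returns to the mesophyll, where pyruvate orthophosphate dikinase (PPDK) rebuilds the acceptor. The pump raises CO2 around Rubisco and lowers photorespiration, the salvage of the product that Rubisco makes with oxygen. C4-like species run most of this cycle but keep part of the direct fixation of CO2 by Rubisco in the mesophyll. Clade B is held to have approached C4 photosynthesis separately from clade A. The comparison asks how the leaf transcriptome of the separately evolved species differs from that of clade A at each leaf stage.

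The deposited values are RPM, the reads assigned to each Arabidopsis locus scaled to 1000000 per library. They are not divided by gene length, so levels are compared between libraries and never between genes. The 9 libraries held 5535026 to 9154492 reads, with 5535026 in juvenile and 6926805 in mature F. brownii, and 3 reads correspond to 0.328 to 0.542 RPM. Differences are F. brownii minus the clade A mean on the log2(RPM + 1) scale, which understates those of low loci, and were fitted with limma for the 14367 loci that averaged 2 RPM or more. That mean ran over all 9 libraries, so a locus could enter through its F. brownii level alone. The species entered as a block, and Benjamini-Hochberg adjustment of the p-values ran over all these loci, with a threshold of 0.05. F. brownii had 1 library per stage, so its spread was assumed to equal that among clade A libraries, and an exact permutation test of single libraries could not go below p = 0.2 in juvenile and p = 0.25 in mature leaves. The p-values therefore measure how far 1 pooled library lies from the spread among species of clade A.

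Over both stages 26 loci were called higher and 10 lower in F. brownii, 0.181% and 0.0696% of those tested. All 26 higher calls were lost with log2(RPM + 0.1) and with a mean of at least 10 RPM, each of which left 6 lower ones. In juvenile leaves 14 were called higher and 15 lower (0.0974% and 0.104%), and in mature leaves 346 higher and 51 lower (2.41% and 0.355%). With a fit per stage in place of the joint fit the mature calls went from 397 to 3. The median difference of all tested loci was 0.25 over both stages, 0.13 in juvenile and 0.34 in mature leaves. Scaling by TMM (trimmed mean of M-values) moved these medians to -0.03, -0.03 and -0.04, and the calls to 17 higher and 23 lower over both stages, 4 and 8 in juvenile and 147 and 78 in mature leaves. List medians are therefore also given with the all-locus median of the same comparison subtracted (relative to all loci). The leaf stages were not equal in age markers. Summed over 13 senescence and chlorophyll breakdown loci the level was 1565 RPM in mature F. brownii against 340 to 496 in mature clade A, and 267 against 215 to 260 in juvenile leaves. The protease SAG12 alone made up 865 of the 1565 RPM. Summed over 23 cell cycle loci it was 1084 RPM in juvenile F. brownii against 190 to 462 in juvenile clade A, and 43.0 against 36.7 to 50.5 in mature leaves. The part of leaf age in the differences below was not tested, and results are given at both stages.

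Genes of the C4 pump lay lower in F. brownii than in clade A at both stages, and 3 of the 24 C4 cycle loci, 2 of PEPC and 1 of adenylate kinase, passed over both stages. All 3 were lower, against 0.0696% of all loci. In juvenile leaves 2 passed and in mature leaves 5, again all lower, against 0.104% and 0.355% of all loci. The list median was -1.50, or -1.75 relative to all loci. F. brownii lay below every clade A library at both stages for 15 of the 24, against 8.03% of all loci. It lay above every clade A library at both stages for 1 of the 24, against 23.5%. Together the 24 loci took 30745 RPM in juvenile F. brownii and 73989 to 125919 in juvenile clade A, and 30112 RPM against 99674 to 132057 in mature leaves. In the C3 species they took 9826 and 11549 RPM in juvenile and 10092 and 19156 in mature leaves. In bulk leaf RNA fewer cells of a type and less RNA per cell cannot be told apart.

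PEPC is the entry enzyme of the cycle. PPC1 (AT1G53310) stood at 2701 RPM in juvenile F. brownii, against 21182 in F. palmeri, 15873 in F. vaginata, 16484 in F. bidentis and 11133 in F. trinervia. In mature leaves it stood at 2901 RPM against 22289 in F. kochiana, 20916 in F. bidentis and 20856 in F. trinervia. The groups did not overlap at either stage, and the clade A mean was 5.99-fold higher in juvenile and 7.36-fold higher in mature leaves. The difference over both stages was -2.77 (SE 0.43, limma adjusted p = 0.0379). PPC2 (AT2G42600) stood at 909 RPM in juvenile F. brownii against 4498 to 11238 in clade A, and at 1211 against 8404 to 12136 in mature leaves. Its difference was -3.17 (SE 0.49, limma adjusted p = 0.0379). PPC3 (AT3G14940) stood at 2591 RPM against 8321 to 17827 and at 2665 against 14802 to 19152, and was called in mature leaves only (-2.80, SE 0.47, limma adjusted p = 0.0186). Its adjusted p over both stages was 0.0503. Arabidopsis has several PEPC genes of similar sequence, and how Flaveria reads were divided among them is not given in the sources used here, so the 3 loci are uncertain as separate genes. The calls for PPC1 and PPC2 over both stages were lost without the juvenile library of F. palmeri, of F. vaginata or of F. bidentis (limma adjusted p 0.0716 to 0.0746). They were also lost with the 3 C4 species as the only clade A species (limma adjusted p = 0.102), with log2(RPM + 0.1) (0.0783), with a mean of at least 10 RPM (0.0546 and 0.0564) and without F. bidentis as a species (0.102). PPC1 passed in 9 and PPC2 in 11 of 18 alternative fits. In mature leaves leaving out any single clade A library left PPC1, PPC2 and PPC3 called. PPC2 and PPC3 were lost without the juvenile libraries of both F. palmeri and F. vaginata (limma adjusted p = 0.0515 and 0.0541). The mature clade A libraries are all of C4 species, so that fit left the mature reference unchanged. PPCK1, a kinase that phosphorylates the enzyme, stood at 6.87 RPM in juvenile and 21.9 in mature F. brownii, against 12.5 to 29.9 and 38.1 to 178 in clade A, and did not pass.

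PPDK (AT4G15530) stood at 2978 RPM in juvenile F. brownii against 32243 in F. palmeri, 23479 in F. vaginata, 24709 in F. bidentis and 14837 in F. trinervia. In mature leaves it stood at 5763 RPM against 37262 in F. kochiana, 27538 in F. bidentis and 16256 in F. trinervia. Again the groups did not overlap, and the clade A mean was 7.999-fold higher in juvenile and 4.69-fold higher in mature leaves. PPDK was called in juvenile leaves (-3.04, SE 0.48, limma adjusted p = 0.0451) and in mature leaves (-2.24, SE 0.49, limma adjusted p = 0.0427). Over both stages it was not called (limma adjusted p = 0.0503). Each of these 2 calls was close to the threshold and was lost when any one of the clade A libraries was left out, F. kochiana excepted (limma adjusted p 0.0586 to 0.107 in juvenile and 0.0571 to 0.0757 in mature leaves). They passed in 3 and 5 of 18 alternative fits. RP1 (AT4G21210), the protein that switches PPDK off and on, stood at 37.8 RPM against 97.5 to 375 in juvenile leaves and within the clade A range in mature leaves, at 193 against 123 to 323.

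The widest gap among the 24 loci was at adenylate kinase, which with a pyrophosphatase clears the AMP and pyrophosphate that PPDK makes. AMK2 (AT5G47840) stood at 48.1 RPM in juvenile F. brownii, against 1630 in F. palmeri, 1987 in F. vaginata, 2060 in F. bidentis and 1623 in F. trinervia. In mature leaves it stood at 45.2 RPM against 747 in F. kochiana, 2515 in F. bidentis and 1630 in F. trinervia. The 4 C3 libraries held 34.3 to 80.2 RPM, so both F. brownii libraries lay within the C3 range. The clade A mean was 38.0-fold higher in juvenile and 36.1-fold higher in mature leaves, and the difference over both stages was -5.04 (SE 0.54, limma adjusted p = 0.00784). The call stood in 16 of the 18 alternative fits that could be made and stood without any single clade A library. It was lost without F. trinervia as a species and with the 3 C4 species as the only clade A species (limma adjusted p = 0.0526 and 0.0617). The plastid pyrophosphatase PPA6 showed a smaller gap, 1100 RPM against 1787 to 2244 in juvenile and 583 against 1528 to 2323 in mature leaves, and did not pass (limma adjusted p = 0.0534 in mature leaves).

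**Figure D1:**
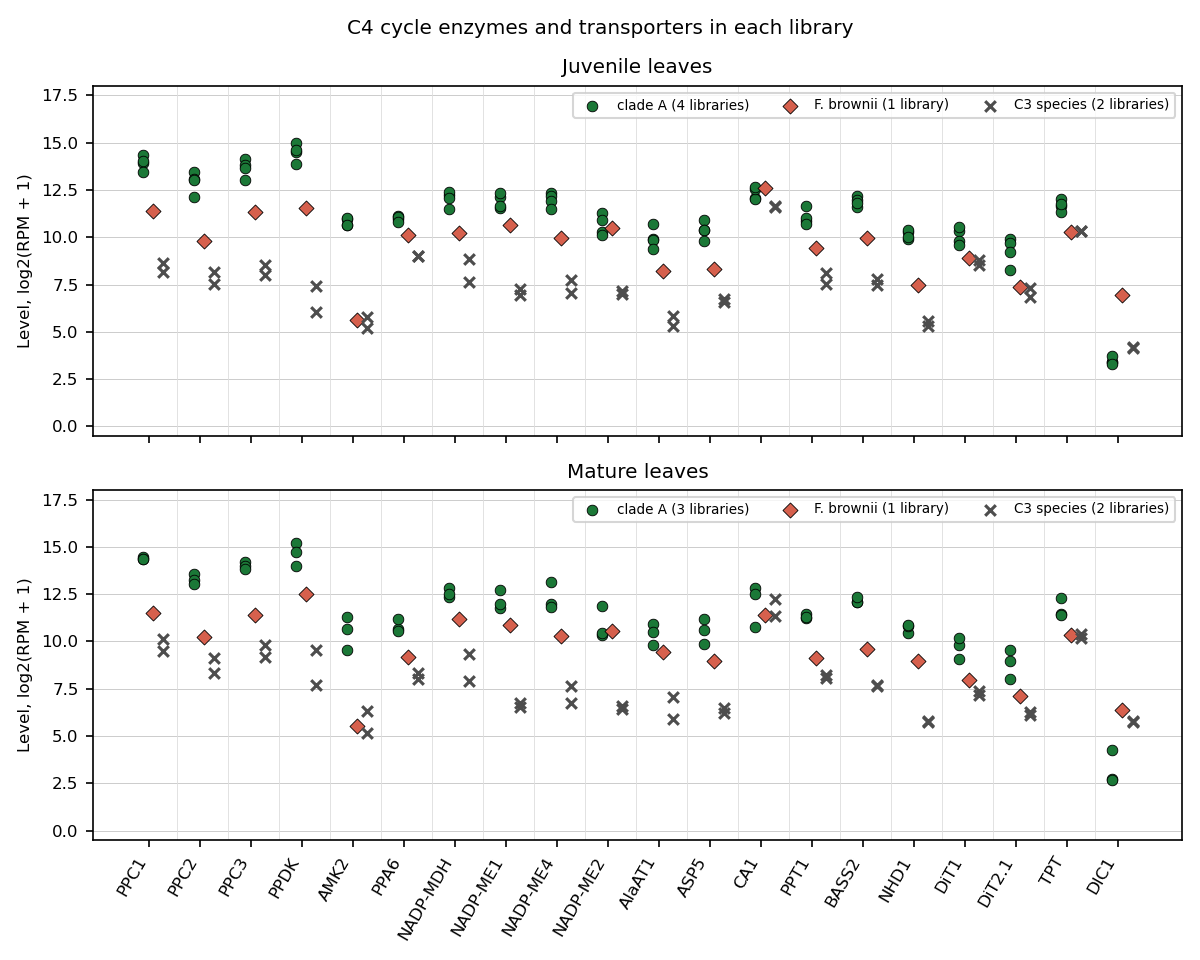
Levels of C4 cycle enzymes and transporters as log2(RPM + 1), 1 point per library, in juvenile leaves (top) and mature leaves (bottom). F. brownii (diamonds) lies below every clade A library (circles) for PPC1, PPDK and BASS2 and above the C3 species (crosses), lies with the C3 species for AMK2, and lies above clade A for DIC1.

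The gaps at the later steps were smaller than that of PPC1, and none passed. NADP-malate dehydrogenase (NADP-MDH, AT5G58330), which reduces oxaloacetate to malate, stood at 1196 RPM against 2938 to 5460 in juvenile and 2301 against 5260 to 7307 in mature leaves (limma adjusted p = 0.128 over both stages). The NADP-malic enzymes release CO2 from malate, NADP-ME4 (AT1G79750) being the plastid form in Arabidopsis. NADP-ME4 stood at 988 RPM against 2925 to 5267 and 1264 against 3591 to 9168, outside the clade A range at both stages (limma adjusted p = 0.104). NADP-ME1 (AT2G19900) stood at 1587 RPM against 3006 to 5274 and 1837 against 3463 to 6685, also outside (limma adjusted p = 0.193). NADP-ME2 lay within the clade A range at both stages, at 1424 RPM against 1114 to 2532 and 1515 against 1273 to 3747. NADP-ME3 stood at 139 RPM against 415 to 951 and 169 against 458 to 1026 (limma adjusted p = 0.121). Reads of the 4 malic enzyme loci may have been divided differently by species, so these too are uncertain as separate genes.

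Of the aminotransferases, which move nitrogen with the carbon in the aspartate and alanine branch, the plastid form ASP5 (AT4G31990) stood at 315 RPM against 885 to 1928 and at 492 against 949 to 2337. AlaAT1 (AT1G17290) stood at 299 RPM against 666 to 1655 and at 697 against 901 to 1906. Neither passed (limma adjusted p = 0.118 and 0.357 over both stages). Cytosolic ASP2 and ASP3 were not set apart, with 182 RPM against 106 to 313 and 190 against 123 to 426 in juvenile leaves. Carbonic anhydrase, which supplies bicarbonate to PEPC, lay within the range of clade A at both stages. CA1 (AT3G01500) stood at 6309 RPM against 4181 to 6478 in juvenile and 2695 against 1760 to 7225 in mature leaves. The other decarboxylases known from C4 plants, NAD-ME and PEPCK, were tested at 4 loci and none passed. NAD-ME1 (AT2G13560) stood at 215 RPM against 88.9 to 155 and at 133 against 45.6 to 107, above clade A at both stages, and PCK1 (AT4G37870) at 26.4 against 20.7 to 65.5 and 23.7 against 8.41 to 16.5. The limma adjusted p-values over both stages were 0.474 and 0.929.

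Carriers of C4 metabolites in the chloroplast envelope followed the same direction. Of 9 transporter loci 8 lay below every clade A library at both stages, against 8.03% of all loci. The list median was -1.69, or -1.93 relative to all loci. Over both stages none passed, at an adjusted p of 0.0503 for both sodium-system carriers. In juvenile leaves 1 of the 9 passed as lower, and in mature leaves 2 as lower and 1 as higher, against 0.104%, 0.355% and 2.41% of all loci. BASS2 (AT2G26900), which brings pyruvate into the chloroplast with sodium, stood at 1004 RPM in juvenile F. brownii against 4707 in F. palmeri, 3108 in F. vaginata, 4028 in F. bidentis and 3540 in F. trinervia. Its mature level was 775 RPM against 4280 in F. kochiana, 4426 in F. bidentis and 5140 in F. trinervia. The mature gap was called (-2.59, SE 0.40, limma adjusted p = 0.0138), with clade A 5.96-fold higher, and remained called without any single clade A library. NHD1 (AT3G19490), the antiporter that returns the sodium, stood at 174 RPM against 965 to 1344 in juvenile and 502 against 1404 to 1849 in mature leaves. It was called in juvenile leaves (-2.65, SE 0.40, limma adjusted p = 0.0412), a call lost without any one of the 4 juvenile clade A libraries (limma adjusted p 0.0526 to 0.105) and with TMM scaling (0.0655). PPT1 (AT5G33320), which exports phosphoenolpyruvate, stood at 698 RPM against 1692 to 3230 and 560 against 2396 to 2851, and was called in mature leaves (-2.30, SE 0.44, limma adjusted p = 0.0267). That call stood without any single clade A library. It was lost without the juvenile libraries of both F. palmeri and F. vaginata (limma adjusted p = 0.0639).

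The dicarboxylate carriers DiT1 (AT5G12860) and DiT2.1 (AT5G64290), which exchange malate with oxoglutarate or glutamate, did not pass. DiT1 stood at 485 RPM against 783 to 1468 and 251 against 540 to 1166, and DiT2.1 at 164 against 312 to 955 and 139 against 262 to 751. The triose phosphate carrier TPT stood at 1237 RPM against 2603 to 4210 and 1293 against 2746 to 5052, both beside C3 levels of 1182 to 1358 RPM. One carrier had the opposite direction. DIC1 (AT2G22500), a mitochondrial dicarboxylate carrier, stood at 124 RPM in juvenile F. brownii against 8.78 to 12.0 in clade A, and at 80.8 against 5.35 to 17.8 in mature leaves. F. brownii was 12.5-fold and 8.46-fold above the clade A mean, and the difference was called in mature leaves (3.12, SE 0.69, limma adjusted p = 0.0449). That call was lost without the juvenile library of F. palmeri, of F. vaginata or of F. trinervia (limma adjusted p 0.0535 to 0.0820). It was also lost with TMM scaling (0.0903), with log2(RPM + 0.1) (0.0715) and without the juvenile libraries of both F. palmeri and F. vaginata (0.0966). It passed in 7 of 18 alternative fits. C3 libraries held 16.5 to 55.4 RPM of DIC1.

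The place of F. brownii between C3 and clade A levels was counted locus by locus. In juvenile leaves clade A lay above both C3 libraries for 23 of the 24 C4 cycle loci, and F. brownii lay between the ranges for 15, in or above the clade A range for 7 and in or below the C3 range for 1, AMK2. In mature leaves clade A lay above for 19, and F. brownii lay between for 14, in or above clade A for 4 and in or below C3 for 1. Among transporters 8 had clade A above C3 at each stage, and F. brownii lay between for 6 and in or below C3 for 2. Among all loci tested, 1478 had clade A above C3 in juvenile leaves. Of these F. brownii lay between for 312, in or above clade A for 640 and in or below C3 for 526. In mature leaves 1796 had clade A above C3, with 383 between, 854 in or above clade A and 559 in or below C3. The same species also supply the clade A side of the comparison above, so this count restates the levels and is no separate evidence.

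Rubisco activase and the small subunit loci RBCS1A and RBCS1B lay above every clade A library at both stages, and activase was called, in mature leaves. RBCS1A (AT1G67090), a small subunit of Rubisco, stood at 19953 RPM in juvenile F. brownii against 2720 in F. palmeri, 1862 in F. vaginata, 4941 in F. bidentis and 4434 in F. trinervia. Its mature level was 11666 RPM against 1661 in F. kochiana, 5219 in F. bidentis and 3983 in F. trinervia, and the C3 libraries held 18494 to 25437. The groups did not overlap, but the difference did not pass (2.41 over both stages, SE 0.58, limma adjusted p = 0.119). RBCS1B showed 11261 RPM against 2342 to 4498 and 5488 against 1193 to 3472. In juvenile leaves RBCS2B lay just above the clade A range, at 13799 RPM against 5552 to 13487, and RBCS3B within it, at 3621 against 2448 to 7822. In mature leaves both lay within it, RBCS2B at 7682 RPM against 5318 to 13099 and RBCS3B at 2706 against 519 to 6714. The RBCS2B difference over both stages turned from 0.39 to -0.19 with TMM scaling. The small subunit loci share most of their sequence and are uncertain one by one. Rubisco activase (RCA, AT2G39730), which frees Rubisco of bound sugars, stood at 13635 RPM against 5393 to 6906 in juvenile and 23897 against 5695 to 7931 in mature leaves. It was called in mature leaves (1.92, SE 0.37, limma adjusted p = 0.0272), where F. brownii was 3.62-fold above clade A. Without the juvenile library of F. palmeri, F. vaginata or F. bidentis or the mature one of F. trinervia the adjusted p was 0.0502 to 0.0562, and with TMM scaling it was 0.131. The call passed in 7 of 18 alternative fits.

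The rest of the Calvin-Benson cycle, which turns the fixed carbon into sugar phosphate, showed no common direction. Of 24 loci, Rubisco included, 13 differences were above and 11 below 0 over both stages, against 63.5% of all loci above 0. Their median of 0.13 became -0.12 when the all-locus median was subtracted and -0.17 after TMM scaling. In mature leaves 1 passed as higher, RCA, and 1 as lower, against 2.41% and 0.355% of all loci. The lower one was CP12-3 (AT1G76560), a member of the small CP12 proteins that hold 2 enzymes of the cycle inactive in the dark. It stood at 54.2 RPM in juvenile F. brownii against 258 to 686 in clade A, and at 102 against 519 to 1104 in mature leaves (-2.74, SE 0.56, limma adjusted p = 0.0345). C3 libraries held 2.94 to 23.9 RPM, so F. brownii lay between. The call was lost without juvenile F. palmeri, juvenile or mature F. trinervia or mature F. bidentis (limma adjusted p 0.0516 to 0.0636), and passed in 6 of 18 alternative fits. Phosphoribulokinase (PRK) and the plastid aldolase FBA3 stood at 4011 RPM against 2071 to 3016 and 1023 against 250 to 440 in juvenile leaves, above every clade A library, and did not pass.

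Photorespiration genes lay higher in F. brownii. Of 25 loci 24 were tested. The differences were above 0 for 20 over both stages, against 63.5% of all loci, and the median was 0.95, or 0.71 relative to all loci. F. brownii lay above every clade A library at both stages for 15 of the 24, against 23.5% of all loci. None passed over both stages or in juvenile leaves. In mature leaves 4 passed, all higher, against 2.41% of all loci, and the list median there was 1.47, or 1.13 relative to all loci. All 4 belong to glycine decarboxylase, the mitochondrial complex that releases CO2 from glycine. GLDT (AT1G11860), its T-protein, stood at 1662 RPM in juvenile F. brownii against 490 in F. palmeri, 370 in F. vaginata, 438 in F. bidentis and 409 in F. trinervia. Its mature level was 1232 RPM against 378 in F. kochiana, 322 in F. bidentis and 319 in F. trinervia. C3 libraries held 829 to 1807 RPM, which takes in both F. brownii values. The mature difference was 1.88 (SE 0.36, limma adjusted p = 0.0267), and the adjusted p over both stages was 0.0503.

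GLDP1 (AT4G33010), the glycine-binding P-protein, stood at 1528 RPM against 558 to 750 in juvenile and 2530 against 520 to 922 in mature leaves (1.94, SE 0.42, limma adjusted p = 0.0410). The lipoamide dehydrogenase loci mLPD1 (AT1G48030) and mLPD2 (AT3G17240) stood at 239 RPM against 42.4 to 67.3 and 271 against 47.0 to 83.5 in mature leaves. Their differences were 2.13 (SE 0.44, limma adjusted p = 0.0344) and 2.08 (SE 0.46, limma adjusted p = 0.0457), and as near copies they are uncertain one by one. The H-proteins, which carry the intermediate between the other subunits, were not set apart as a group. GLDH1 stood at 206 RPM against 82.2 to 202 and 185 against 54.1 to 185, and GLDH3 at 491 against 194 to 554. All 4 calls of the complex were lost without juvenile F. palmeri, with adjusted p of 0.0505 for GLDT, 0.0688 for mLPD1, 0.0784 for GLDP1 and 0.0859 for mLPD2. GLDT was also lost without juvenile F. vaginata (0.0513), mLPD1 without the juvenile or the mature library of F. trinervia (0.0539 and 0.0521), and GLDP1 and mLPD2 without any library except mature F. kochiana. GLDT passed in 10, mLPD1 in 7 and GLDP1 and mLPD2 in 4 of 18 alternative fits each. With TMM scaling none of the 4 passed (limma adjusted p 0.0605 to 0.0842), while the list median stayed above 0 in every alternative fit, from 0.55 to 1.12 over both stages.

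Serine hydroxymethyltransferase works beside the complex, and SHM1 (AT4G37930) stood at 2682 RPM against 863 to 1367 and 3781 against 952 to 2153 (limma adjusted p = 0.252 over both stages). In the peroxisome, glycolate oxidase GOX1 stood at 1016 RPM against 633 to 990 and 2751 against 1207 to 1782. The aminotransferase AGT1 (AT2G13360) stood at 1458 RPM against 494 to 1447 in juvenile leaves, level with the highest clade A library, and at 6674 against 854 to 1971 in mature leaves. Catalase CAT2 stood at 2627 RPM against 978 to 2427 and 11578 against 1611 to 8870. Not all members lay higher. Glycerate kinase GLYK stood at 95.9 RPM against 76.6 to 172 and 46.9 against 56.0 to 61.9, and the glycolate and glycerate carrier PLGG1 at 117 against 135 to 200 and 72.9 against 82.0 to 146. PGLP1, the phosphatase of the first step, had a mean too low to be tested and was listed at 0 in both F. brownii libraries. Against C3, clade A lay below both C3 libraries for 17 of the 24 loci in juvenile leaves, where F. brownii lay between for 7, in or above C3 for 6 and in or below clade A for 4. In mature leaves clade A lay below for 15, and F. brownii lay between for 3, in or above C3 for 11 and in or below clade A for 1. Among all loci tested, clade A lay below both C3 libraries for 2398 in juvenile leaves, and F. brownii lay in or above C3 for 1089 of them. In mature leaves these were 1967 and 1304, so the mature count of 11 of 15 was near the share of all loci.

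**Figure D2:**
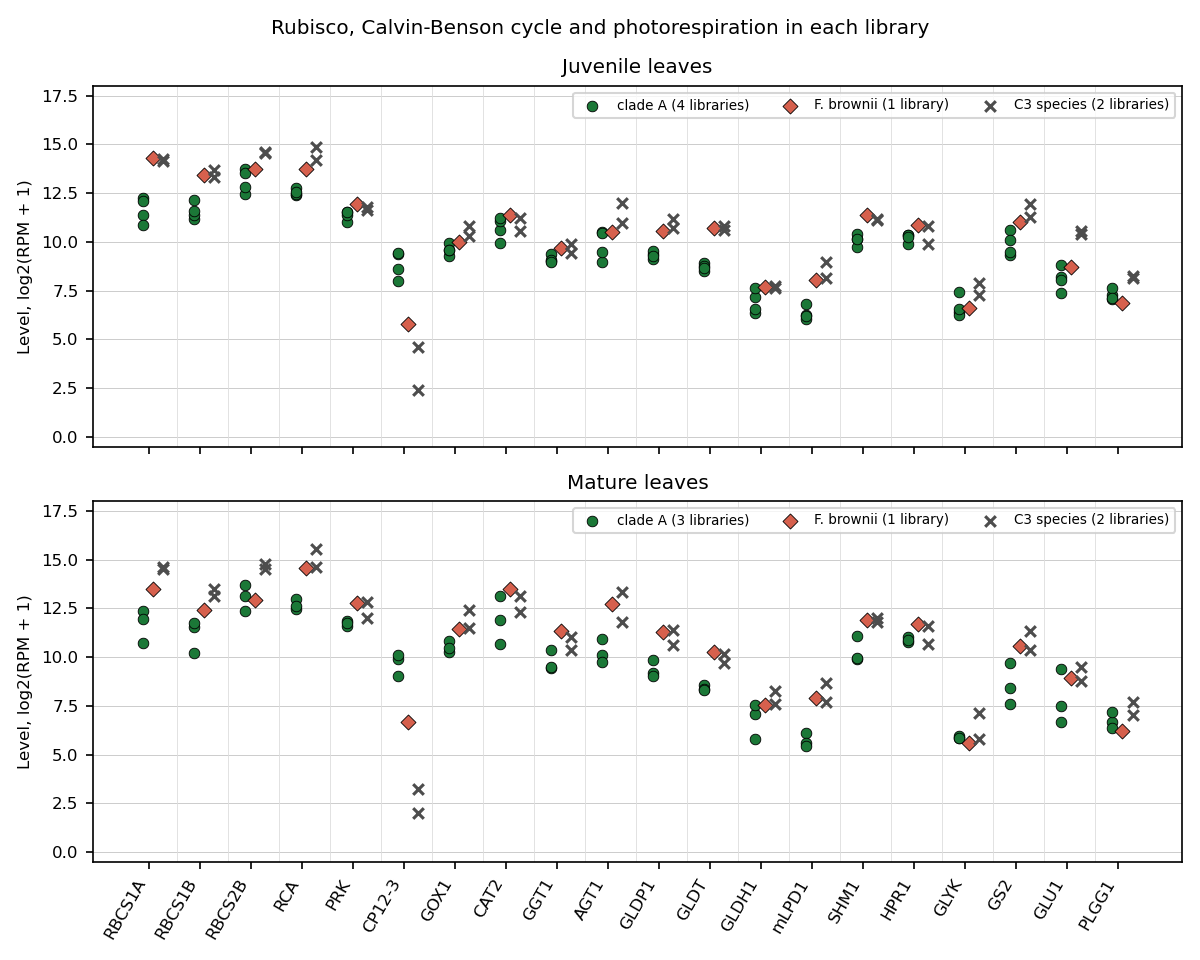
Levels of Rubisco, Calvin-Benson cycle and photorespiration loci as log2(RPM + 1), 1 point per library, in juvenile (top) and mature (bottom) leaves. F. brownii (diamonds) lies above clade A (circles) for RBCS1A, RCA, GLDP1, GLDT and mLPD1, and below clade A for CP12-3 and PLGG1; crosses are the C3 species.

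Genes of the light reactions lay lower in F. brownii for photosystem I, cyclic electron flow and linear electron transport with ATP synthase at both stages. For photosystem II they lay lower mainly in mature leaves. Cyclic flow around photosystem I gives ATP without NADPH and is known to be strong in bundle sheath cells of NADP-ME type C4 plants. All 20 cyclic loci had differences below 0 over both stages, in each stage and after TMM scaling. Their median was -1.13, or -1.37 relative to all loci. Of all 14367 loci 5243 had differences below 0 over both stages. F. brownii lay below every clade A library at both stages for 16 of the 20, against 8.03%. In mature leaves 2 of the 20 passed, against 0.355%, both subunits of the chloroplast NDH complex. PNSB1 (AT1G15980) stood at 322 RPM against 857 to 1067 in juvenile and 299 against 919 to 1123 in mature leaves (-1.72, SE 0.36, limma adjusted p = 0.0385). PNSL4 (AT4G39710) stood at 87.3 RPM against 231 to 307 and 71.8 against 226 to 243 (-1.62, SE 0.37, limma adjusted p = 0.0496). PNSB1 was lost without juvenile F. palmeri, F. vaginata or F. bidentis or mature F. bidentis (limma adjusted p 0.0540 to 0.0748), and PNSL4 without any library except mature F. kochiana (0.0557 to 0.0859). They passed in 7 and 5 of 18 alternative fits. Of the PGR5 route, PGRL1A (AT4G22890) stood at 206 RPM against 544 to 868 in juvenile leaves but at 925 against 1065 to 1364 in mature leaves. PGR5 itself stood at 326 RPM against 334 to 710 and 697 against 621 to 1322.

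All 16 photosystem I loci had differences below 0 at both stages, against 6199 of all 14367 loci in juvenile and 4898 in mature leaves. Their median was -1.23 over both (-1.47 relative to all loci), and none passed. F. brownii lay below every clade A library at both stages for 15 of the 16, against 8.03%. PSAO (AT1G08380), a small subunit at the antenna contact, stood at 857 RPM against 1147 to 2080 and 576 against 1580 to 2887. PSAN stood at 739 RPM against 1315 to 5305 and 937 against 2078 to 6106, and the antenna protein LHCA3 at 4191 against 4494 to 7068 and 5130 against 6358 to 11666. Of the 10 loci with clade A above C3 in juvenile leaves, F. brownii was in or below the C3 range for 7, and of the 4 in mature leaves for 4. Among all loci tested this held for 526 of 1478 in juvenile and 559 of 1796 in mature leaves. For photosystem II the median was -0.14 in juvenile and -0.98 in mature leaves (-0.27 and -1.32 relative to all loci), none of 24 loci passed, and the number below every clade A library was 8 in juvenile and 22 in mature leaves, against 20.8% and 17.3% of all loci. The minor antenna proteins LHCB4.1 (AT5G01530) and LHCB4.2 (AT3G08940) stood within the clade A range in juvenile leaves, at 2554 RPM against 1740 to 3219 and 1889 against 1536 to 2772. In mature leaves they stood at 1048 RPM against 2397 to 4385 and 660 against 1503 to 3093. Of 10 loci of linear electron transport and ATP synthase 9 had differences below 0 over both stages, against 5243 of all 14367 loci. None of the 10 passed. Their median was -0.82, or -1.07 relative to all loci. F. brownii lay below every clade A library at both stages for 6 of the 10, against 8.03%. The most abundant, ATPC1 (AT4G04640), stood at 1624 RPM against 2538 to 3754 in juvenile and 2082 against 3265 to 3654 in mature leaves.

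**Figure D3:**
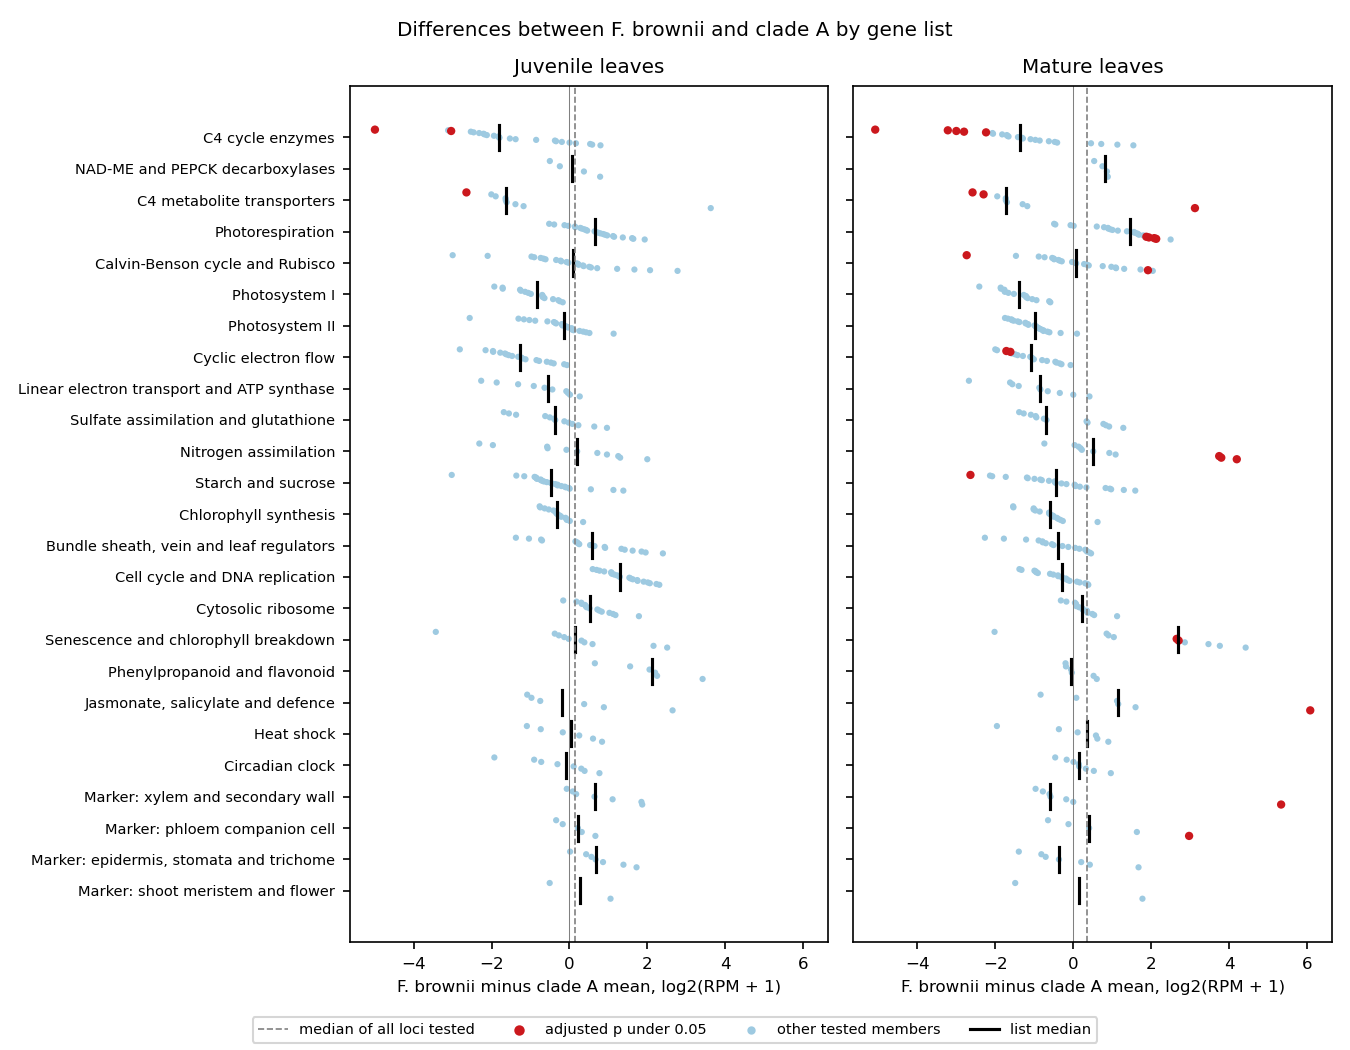
Differences between F. brownii and the clade A mean on the log2(RPM + 1) scale for every tested locus of the 25 lists, in juvenile (left) and mature (right) leaves. Red points passed the limma test, black bars mark list medians and the dashed line the median of all loci, which is 0.13 in juvenile and 0.34 in mature leaves; the C4 cycle, transporter, photosystem I and cyclic flow lists lie to the left and photorespiration to the right at both stages.

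Whether the difference between F. brownii and clade A changed with leaf stage was tested as an interaction. It was called for 2442 loci. The difference was higher in mature than in juvenile leaves for 1666 and lower for 776, 11.6% and 5.4% of those tested. After TMM scaling these were 860 and 826. All these calls rest on the species block, whose correlation of 0.806 was estimated from F. bidentis and F. trinervia, the 2 clade A species with both stages. Without the block 0 passed in limma (950 at an unadjusted p under 0.05), and 0 in edgeR on the recovered reads (860). The clade A species also changed between stages. The C4-like F. palmeri and F. vaginata gave juvenile libraries only, and the C4 species F. kochiana a mature one only. A difference between stages cannot be fully told apart from this change of species. With only the C4 species of clade A 315 loci were called. The C4 cycle list had 1 call of 24, RP1 (2.05, SE 0.48, limma adjusted p = 0.0194), against 11.6% of all loci, and its median difference of stages was 0.09, or -0.14 relative to all loci. For PPC1, PPDK and AMK2 the gap changed between stages by -0.47 (SE 0.31), 0.80 (SE 0.33) and -0.09 (SE 0.39), and none of these passed (limma adjusted p = 0.305, 0.118 and 0.894).

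In nitrogen assimilation the calls fell on 1 enzyme. Cytosolic glutamine synthetase, which packs ammonium into glutamine and is known for nitrogen export from ageing leaves, passed at all of its 3 listed loci in mature leaves. Of the 11 loci of the list these were the only calls, against 2.41% of all loci. The list median in mature leaves was 0.51, or 0.17 relative to all loci, and 6 of the 11 loci lay above every clade A library, against 44.6% of all loci. GLN1;2 (AT1G66200) stood at 4753 RPM in mature F. brownii against 449 in F. kochiana, 314 in F. bidentis and 72.9 in F. trinervia. In juvenile leaves it stood at 1023 RPM against 115 to 431. GLN1;1 (AT5G37600) stood at 2291 RPM against 74.4 to 261 in mature and 448 against 131 to 364 in juvenile leaves, and GLN1;3 (AT3G17820) at 1714 against 66.2 to 182 and 345 against 111 to 176. F. brownii was thus above every clade A library at both stages and 17.1-fold, 12.9-fold and 12.9-fold above the clade A mean in mature leaves. The mature differences were 4.198 (SE 0.93, limma adjusted p = 0.0444), 3.75 (SE 0.82, 0.0439) and 3.80 (SE 0.62, 0.0166). The 3 loci are close copies and uncertain one by one. GLN1;1 was lost without juvenile F. palmeri or F. trinervia and GLN1;2 without juvenile F. palmeri, F. vaginata or F. trinervia (limma adjusted p 0.0546 to 0.0794), and both with TMM scaling. GLN1;3 stood without any single clade A library and with TMM scaling. It was lost without the juvenile libraries of both F. palmeri and F. vaginata (limma adjusted p = 0.0522). GLN1;1, GLN1;2 and GLN1;3 passed in 9, 8 and 16 of 18 alternative fits. The senescence sum in the same mature library was 1565 RPM, above the 340 to 496 of clade A, and its part in these values was not tested. One C3 library, mature F. cronquistii, held 9022 RPM of GLN1;2 with a senescence sum of 275 RPM, and mature F. pringlei 518 RPM with 500.4. These are single libraries of other species, and a relation between the 2 levels was not tested.

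Among senescence and chlorophyll breakdown loci 10 of 13 were tested and 2 passed in mature leaves, both higher, against 2.41% of all loci. SGR1 (AT4G22920), which starts the breakdown of chlorophyll, stood at 58.5 RPM in mature F. brownii against 7.03 to 17.2, and at 5.06 against 4.44 to 15.4 in juvenile leaves (mature 2.65, SE 0.60, limma adjusted p = 0.0485). WRKY53 (AT4G23810), an early regulator of leaf senescence in Arabidopsis, stood at 17.61 RPM against 1.31 to 3.46 and 7.23 against 0.255 to 1.06 (mature 2.71, SE 0.54, limma adjusted p = 0.0317). The list median in mature leaves was 2.68, or 2.34 relative to all loci, and 9 of the 10 loci lay above every clade A library, against 44.6% of all loci. NAP (AT1G69490), a NAC regulator of senescence, stood at 32.6 RPM against 0.256 to 2.95, and the protease SAG12 (AT5G45890) at 865 against 14.7 to 149 (limma adjusted p = 0.0566 and 0.0772). SEN1 went the other way, at 9.53 RPM against 37.5 to 73.5. WRKY53, NAP and SAG13 reached the mean of 2 RPM through F. brownii. Their clade A means were 0.529, 0.729 and 1.58 RPM in juvenile and 2.05, 1.48 and 1.42 RPM in mature leaves. The count, the list median and the WRKY53 call therefore rest in part on loci admitted by their F. brownii level. The SGR1 call was lost without any library except mature F. kochiana (limma adjusted p 0.0622 to 0.0893), and the WRKY53 call without juvenile F. palmeri or F. vaginata (0.0558 and 0.0613). Both were lost with TMM scaling, and they passed in 3 of 18 and 9 of 17 alternative fits.

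Growth genes had the reverse stage pattern. All 21 tested cell cycle and DNA replication loci had juvenile differences above 0, against 56.9% of all loci. Their median was 1.29 (1.16 after subtraction of the all-locus median), and F. brownii lay above every juvenile clade A library for 19 of them, against 35.1% of all loci. None passed in juvenile leaves. For 10 the difference from clade A passed as lower in mature than in juvenile leaves, against 5.4%. MCM4 (AT2G16440), a helicase subunit at replication origins, stood at 99.5 RPM against 11.4 to 38.4 in juvenile leaves and 0.722 against 0.917 to 2.56 in mature leaves. CDC20.1 (AT4G33270), an activator of the complex that ends mitosis, stood at 39.0 RPM against 8.54 to 10.7 and 0.433 against 2.05 to 5.81. Its mature F. brownii value is 3 reads and that of MCM4 is near this floor, so the mature levels of both are uncertain. The change of the CDC20.1 difference between stages ran from -5.05 to -2.03 over the alternative fits. Of 18 regulators of bundle sheath, veins and leaf growth none passed in either stage. The difference was lower in mature than in juvenile leaves for 17 of the 18, against 5550 of all 14367 loci. Of the 18, 7 passed as lower, against 5.4% of all loci. ANT, among the 7, averaged 2 RPM or more over the 9 libraries only through F. brownii. The count of 7 therefore rests in part on a locus admitted by its F. brownii level. GRF5 (AT3G13960), a growth factor of young leaves, stood at 49.5 RPM against 6.43 to 11.3 in juvenile leaves and 1.59 against 2.14 to 7.05 in mature ones. SCR, known from root endodermis and bundle sheath patterning, stood at 26.6 RPM against 55.0 to 88.8 and 4.48 against 15.4 to 34.5, below clade A at both stages, and SHR at 56.5 against 24.2 to 40.3 and 12.0 against 10.4 to 14.7.

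Phenylpropanoid and flavonoid genes shared this stage pattern. Of 8 loci 6 were tested, the juvenile median was 2.13, or 1.99 relative to all loci, and none passed in juvenile leaves. For 5 of the 6 the difference from clade A passed as lower in mature than in juvenile leaves, against 5.4% of all loci. F3H (AT3G51240), a flavanone hydroxylase, stood at 1692 RPM in juvenile F. brownii against 111 in F. palmeri, 119 in F. vaginata, 314 in F. bidentis and 243 in F. trinervia. In mature leaves it stood at 37.7 RPM, within the 13.6 to 71.0 of clade A. Chalcone synthase CHS (AT5G13930), the entry of the pathway, stood at 4659 RPM against 1170 to 1488 and 155 against 55.5 to 281. DFR and LDOX, which lead on to anthocyanins, were at 0.542 RPM or less in both F. brownii libraries. That is near the floor of 3 reads, and no difference from clade A is drawn from it.

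**Figure D4:**
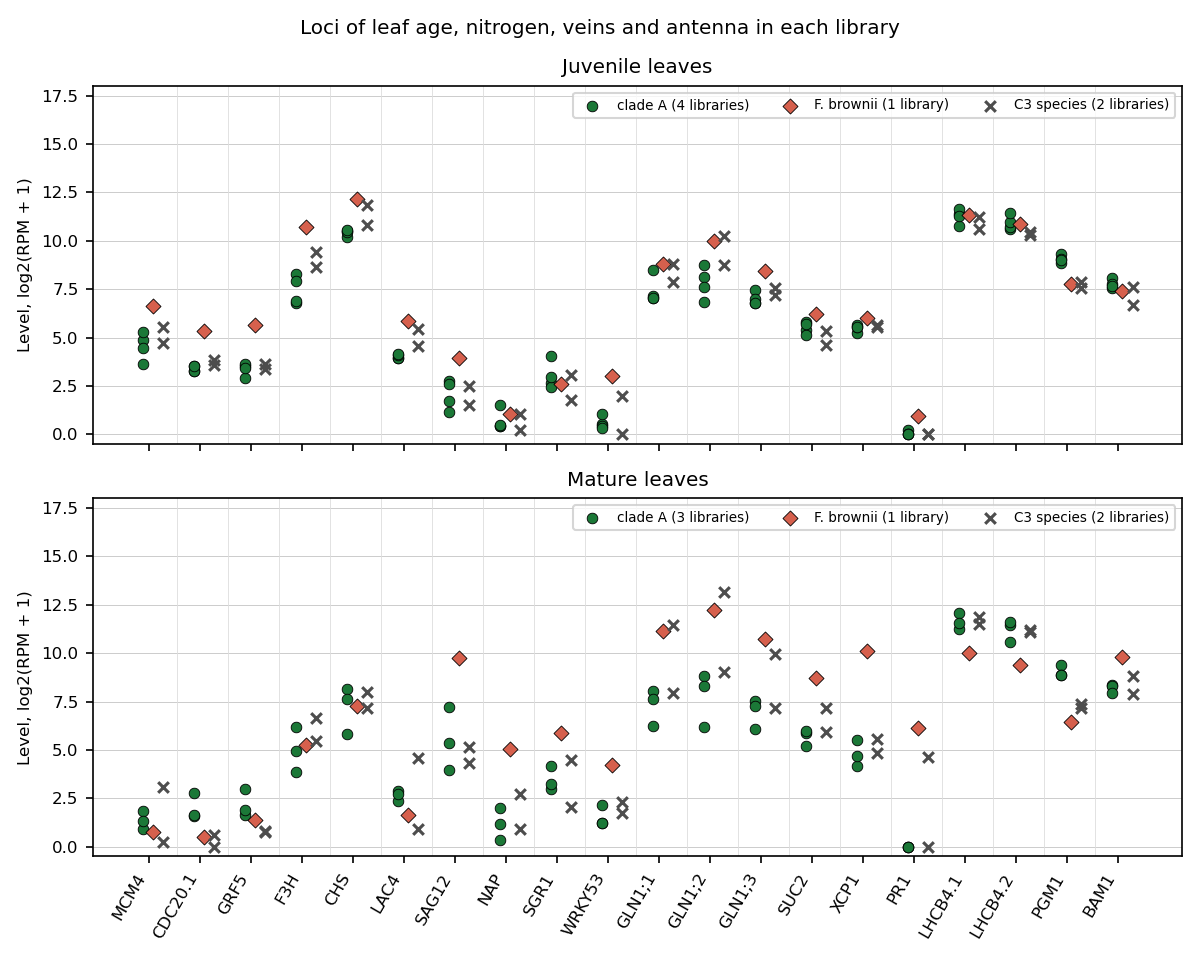
Levels of loci of growth, flavonoids, senescence, nitrogen, veins and antenna as log2(RPM + 1), 1 point per library, in juvenile (top) and mature (bottom) leaves. F. brownii (diamonds) lies above clade A (circles) for MCM4, GRF5, F3H and CHS in juvenile leaves and for SAG12, NAP, GLN1;2, XCP1 and SUC2 in mature leaves, and below it for LHCB4.1, LHCB4.2 and PGM1 in mature leaves.

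Markers of other leaf tissues and of stress were read beside these results. Single members passed as higher in 3 of these lists in mature leaves, 1 of 7 xylem, 1 of 5 phloem and 1 of 6 defence loci, against 2.41% of all loci. XCP1 (AT4G35350), a cysteine protease of xylem vessels, stood at 1125 RPM in mature F. brownii against 16.8 in F. kochiana, 24.6 in F. bidentis and 45.6 in F. trinervia, and at 63.6 against 36.6 to 49.9 in juvenile leaves. It was 38.8-fold above the clade A mean in mature leaves (5.34, SE 0.61, limma adjusted p = 0.00488) and stood without any single clade A library. The other xylem markers did not share this. CESA4, CESA7 and CESA8 stood at 81.0, 42.9 and 17.8 RPM against 80.4 to 108, 39.9 to 51.1 and 23.6 to 29.1, and XCP2 at 19.3 against 18.2 to 50.1. XCP1 and SAG12 are papain-type proteases of similar sequence, so reads of one may have been counted to the other. SUC2 (AT1G22710), the sucrose loader of phloem companion cells, stood at 415 RPM against 57.8 in F. kochiana, 36.5 in F. bidentis and 62.2 in F. trinervia (mature 2.97, SE 0.42, limma adjusted p = 0.0110). Its call also stood without any single clade A library. Of the other phloem markers AHA3 stood at 405 RPM against 94.4 to 193, and SWEET11 and SWEET12 lay below or within the range at 14.3 against 17.7 to 38.8 and 5.20 against 3.72 to 10.6.

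PR1 (AT2G14610), a marker of the salicylate response, had 473 reads in mature F. brownii and 0 in the 3 mature clade A libraries. It averaged 2 RPM or more only through that F. brownii library, so its entry into the test depended on the level tested. With 0 taken as 3 reads over the group, F. brownii was at least 535-fold higher, and the limma difference of 6.08 (SE 0.51, adjusted p = 0.000950) depends on the added 1 RPM and is no measure of the fold. In juvenile leaves it had 5 reads against 1 in the 4 clade A libraries, a ratio of 25.9 (95% exact interval 2.90 to 1227, counting error only). The call over both stages (limma adjusted p = 0.0242) was lost without juvenile F. palmeri (0.0550), with log2(RPM + 0.1) (0.244), with 1 value per species (0.147), against the 3 C4 species alone (0.0792) and without F. bidentis or F. trinervia as a species (0.0629 and 0.0570). The mature call was lost with log2(RPM + 0.1) (0.0673). PR2, another such marker, stood at 71.5 RPM against 3.36 in F. kochiana, 12.1 in F. bidentis and 561 in F. trinervia, within the range. Epidermal and stomatal markers summed to 207 RPM against 105 to 126 in juvenile leaves and 33.5 against 29.1 to 75.5 in mature ones. Of the 9 shoot meristem and flower loci 2 were tested, and none passed. The most abundant, AP1 (AT1G69120), stood at 5.06 RPM against 0.825 to 3.95 in juvenile and 9.67 against 1.07 to 4.15 in mature leaves. It thus lay above every clade A library at both stages, and the other tested locus lay below. The meristem regulators STM, KNAT1, WUS and LFY were at 0.361 RPM or less in both F. brownii libraries. None of the 6 heat shock loci tested and none of the 8 clock loci tested passed in either stage or over both by limma.

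In storage metabolism 1 of 25 starch and sucrose loci passed, in mature leaves, against 0.355%. PGM1 (AT5G51820), the plastid phosphoglucomutase that feeds starch synthesis, stood at 85.3 RPM against 662 in F. kochiana, 465 in F. bidentis and 462 in F. trinervia, and at 215 against 463 to 630 in juvenile leaves. The mature difference was -2.64 (SE 0.38, limma adjusted p = 0.0110), clade A was 6.21-fold higher, and the call stood without any single clade A library. The sucrose phosphate synthase SPSC stood at 24.4 RPM against 166 to 234 and 103 against 296 to 784, outside the clade A range at both stages, and did not pass (limma adjusted p = 0.0664 over both stages). The beta-amylase BAM1 (AT3G23920) stood at 171 RPM against 186 to 269 in juvenile and 889 against 248 to 322 in mature leaves. None of the 13 sulfate and glutathione, 16 chlorophyll synthesis and 15 ribosomal protein loci passed over both stages or in either stage by limma. Their medians over both stages were -0.65, -0.47 and 0.48, or -0.90, -0.72 and 0.23 relative to all loci. The ribosomal median in mature leaves was 0.23, or -0.11 relative to all loci and -0.19 with TMM scaling. The unadjusted p-values under 0.05 over all loci numbered 1881 over both stages, 1715 in juvenile and 2755 in mature leaves.

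Of the 36 loci called over both stages 32 belong to none of the lists, and for 34 F. brownii lay at least 1 log2 unit beyond the nearest clade A library at both stages. Over all loci that distance was reached by 351 above and 117 below, 2.44% and 0.814%, or by 199 and 192 after TMM scaling. The files do not pair loci with gene names, so of the loci outside the lists the 2 with the largest difference in each direction are given by their identifiers. AT3G56160 stood at 48.1 RPM in juvenile F. brownii against 567 to 1008 in clade A, and at 30.3 against 908 to 1338 in mature leaves. AT2G42770 stood at 8.13 RPM against 176 to 372 and 4.48 against 277 to 689. Their differences were -4.56 (SE 0.40, limma adjusted p = 0.00332) and -5.57 (SE 0.53, limma adjusted p = 0.00429), and both passed in 18 of 18 alternative fits. Higher in F. brownii were AT4G38410, at 90.2 RPM in juvenile and 104 in mature leaves, and AT2G19990, at 4.52 and 149 RPM. Both averaged 2 RPM or more only through F. brownii. Their entry into the test thus depended on the level tested, and their adjusted p-values are no separate support. In clade A the first had 2 reads in all 4 juvenile and 1 in all 3 mature libraries, ratios of 1295 (95% exact interval 357 to 10720) and 2435 (436 to 96321). The second had 2 and 4 reads, ratios of 64.9 (16.2 to 565) and 873 (340 to 3208). These intervals cover counting error only. Their limma adjusted p-values over both stages were 0.000564 and 0.00784, and both were lost with log2(RPM + 0.1) (0.0601 and 0.142) and with a mean of at least 10 RPM (0.0769 and 0.244), the second also against the 3 C4 species alone (0.0617).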

How the data were processed

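The 9 libraries hold total RNA of greenhouse-grown leaves, 1 library per species and stage, so variation among plants within a species is not in the p-values. The deposited values are RPM of 20551 Arabidopsis loci, made by the authors and summing to 1000000 per library. The submitters' processing notes name TAIR10, and the aligner and counting are not given in the sources used here. All values were whole multiples of 1 read within a tolerance of 0.001, which gave the reads per library.

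A limma 3.58.1 fit (R 4.3.3, trended prior) on log2(RPM + 1) with 4 groups, F. brownii and clade A at each stage, gave the difference at each stage, their average ("both stages") and their difference. Species was a random block, since 2 clade A species gave both stages and their deviations from the stage means correlated at 0.551 and 0.619, against -0.394 to 0.383 for other pairs. The fit had 5 residual and 5.13 prior degrees of freedom. Alternatives were edgeR 4.0.16 on the recovered reads, other scalings, pseudocounts, filters and reference species, and left-out clade A libraries. F. brownii, with 1 library per stage, was never left out.

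The 25 gene lists (359 loci, 331 tested) and the libraries were chosen with earlier results of these data known. Symbols were assigned by hand from the Arabidopsis locus. Named by rule were up to 4 loci per list that passed over both stages, where fewer than 2 did also the most abundant one, up to 2 with a stage difference, a fixed set of C4 and photorespiration genes, and outside the lists the 2 largest differences each way at least 1 log2 unit beyond clade A. All list loci that passed at a stage are also given, and other list loci were named after their values were seen.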

Additional observations from a re-analysis of the deposited data

Results flagged for a closer look

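Within juvenile clade A, 6 of 91 loci had 1 library set apart from the other 3 by more than the 95% critical value of Dixon's test, which chance passes in about 1 of 20 groups. F. trinervia was low for APR3, a sulfate reductase, at 241.83 RPM, and was the only one with reads of AT2G19990, at 0.255 RPM. F. palmeri was high for NAP at 1.84 RPM and the only one with reads of PR1, at 0.153 RPM. F. vaginata was high for mLPD2 at 140.8 RPM and for GLN1;1 at 364 RPM, and both of these passed as higher in mature F. brownii.

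For 44 named loci the difference between F. brownii and clade A itself differed between stages by limma (adjusted p under 0.05, mature minus juvenile difference on the log2 scale). All 44 calls were lost without the species block and with edgeR, and 32 were lost with only the C4 species of clade A. In named loci of growth, veins, cell division and stomata the difference from clade A was lower in mature than in juvenile leaves. It changed by -3.18 for GRF5, -1.62 for ANT, -1.04 for CNA, -3.18 for MCM4, -3.13 for CDC20.1, -1.92 for TSO2 and -3.12 for FAMA. The same held for named flavonoid loci, by -2.90 for F3H, -2.26 for FLS1 and -2.09 for CHS. Of these loci ANT averaged 2 RPM or more only through F. brownii. Its clade A means were 2.57 RPM in juvenile and 0.276 RPM in mature leaves. Named light reaction and pigment loci were lower by -1.07 for PSAO, -0.96 for PSAH1, -1.82 for LHCB4.2, -1.64 for LHCB4.1 and -1.20 for PORB. Also lower were APS1 (-1.46), DPE1 (-1.39), PGM1 (-1.28), HSFA2 (-1.22), AT2G42770 (-1.68) and AT3G56160 (-1.22).

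In named senescence and nitrogen loci the difference from clade A was higher in mature than in juvenile leaves. It changed by 3.74 for SAG13, 3.38 for NAP, 3.03 for SGR1, 2.50 for GLN1;3, 2.49 for GLN1;1, 2.1996 for GLN1;2 and 2.50 for NIA2. Of the 7 xylem and secondary wall loci tested 1 was higher, XCP1 by 4.69, and 3 were lower, among them LAC4 by -2.84. The phloem loci SUC2 and AHA3 were higher by 2.31 and 1.81, PR1 by 5.20 and AT2G19990, of no list, by 4.78. Named photosynthesis and photorespiration loci were higher by 2.05 for RP1, 0.91 for NHD1, 1.82 for AGT1, 1.13 for GGT1, 0.87 for TPI, 1.35 for PGRL1A and 0.93 for NDHM. The remaining ones were OASA1 (1.91), BAM1 (1.95) and PRR5 (2.46).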

How the results depend on the processing

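The counts of called loci moved with most settings, and no named locus that was called changed its direction. Over both stages 36 loci were called as reported, 6 with log2(RPM + 0.1), 266 with log2(RPM + 5), 358 without a filter, 6 with a mean of at least 10 RPM, 21 with 1 value per species, 3 against the C4 species only, and 8 to 307 with a library or species left out. Of the 36 as reported 26 were higher in F. brownii, against 0 of the 6 with log2(RPM + 0.1) and 0 of the 6 with a mean of at least 10 RPM. With log2(RPM + 5) 232 were higher and 34 lower, and without a filter 323 were higher and 35 lower. The higher calls over both stages thus depended on low loci and on the added RPM. In juvenile leaves 29 became 115 with log2(RPM + 5), 288 without a filter, 12 with TMM scaling, 1 against the C4 species only, and 9 to 85 with a library or species left out. In mature leaves 397 became 140 with log2(RPM + 0.1), 771 with log2(RPM + 5), 864 without a filter, 121 with a mean of at least 10 RPM and 225 with TMM scaling. They became 103 without the juvenile libraries of both F. palmeri and F. vaginata, which left the mature libraries unchanged. With the stage fitted alone 3 were called, and 204 to 978 with a library or species left out, the last without mature F. kochiana. The stage difference was called for 2442 loci, 315 against the C4 species only, and 1387 to 3562 with a library or species left out. Of the 468 loci at least 1 log2 unit outside the clade A range, 66 were left at a distance of 2, 249 with log2(RPM + 5), 803 counted against the C4 species only, and 4535 at a distance of 0. The cause of these shifts was not tested, apart from fewer libraries where some were left out.

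The species block paired the 2 stages of a species. Without the block 1138 loci passed over both stages, 41 in juvenile leaves, 446 in mature leaves and 0 for the stage difference, and edgeR on the recovered reads, which has no block, called 630 over both stages, 4 in juvenile leaves, 175 in mature leaves and 0 for the stage difference. Of the 91 named loci 8 passed over both stages as reported, 35 more passed without the block and none was lost. In mature leaves 29 of the 91 passed, and 26 of them were lost with the stage fitted alone. With 1 F. brownii library per stage, its own spread was not measured, and depth limits loci under 0.328 to 0.542 RPM.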

Other observations

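F. pubescens, a C3-C4 intermediate of clade B and so from the same branch as F. brownii, has 1 juvenile and 1 mature library that enter no comparison. Its mature library held 1366 RPM of PPC1, 3109 RPM of PPDK, 70.4 RPM of AMK2 and 641 RPM of BASS2, against 2901, 5763, 45.2 and 775 RPM in mature F. brownii. In juvenile leaves it held 198 RPM of PPC1, 581 RPM of PPDK, 55.5 RPM of AMK2 and 608 RPM of BASS2, against 2701, 2978, 48.1 and 1004 RPM. AMK2 was thus at 80.2 RPM or less in the F. brownii, F. pubescens and C3 libraries, and at 747 RPM or more in clade A. NADP-ME1 and NADP-ME4 stood at 2470 and 1678 RPM in mature F. pubescens, above the 1837 and 1264 RPM of mature F. brownii. GLDT stood at 1087 and 1424 RPM in juvenile and mature F. pubescens, beside 1662 and 1232 RPM in F. brownii and at most 490 RPM in clade A.

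Mitochondrial loci took 0.640% of the reads in mature F. brownii against 0.0494% to 0.176% in mature clade A, and 0.475% against 0.174% to 0.797% in juvenile leaves.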
